A study of Macaca fascicularis with 48 samples.

Results

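Central nervous myelin was followed through 9 genes of oligodendrocytes, the glial cells that wrap axons in brain and spinal cord: MBP, MOG, MAG, MOBP, CNP, CLDN11, OPALIN, UGT8 and CMTM5. The genes were picked by name, and 9 of 9 were present among the 16842 gene names of the count table. The libraries came from cynomolgus monkeys (Macaca fascicularis) that were given GS-8873, which the submitters call an inhibitor of HBV (hepatitis B virus) mRNA, by oral gavage for 13 weeks. The daily dose was 6 mg/kg in the treated group and 0 in the control group, and route and duration were the same in both groups. Cervical, thoracic and lumbar spinal cord, cervical and lumbar dorsal root ganglia and liver each gave 4 control and 4 treated libraries, and each group of 4 held 2 males and 2 females. By the labels there were 10 animals, although the design text counts 8, and the same 4 control animals gave every tissue. Of 6 treated animals, 4 gave cord and liver, and the ganglion groups drew on all 6 in different combinations. The labels give no age, and they do not describe how each cord or ganglion piece was dissected. Sample descriptions carry a sampling code that is not explained, and its number differed from that of the rest of the tissue in cervical cord treated 3, lumbar cord control 2 and treated 4, cervical ganglion treated 4, and lumbar ganglion control 2 and treated 2. The part of this code in the results was not tested.

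In the central nervous system, oligodendrocytes make myelin from a lipid-rich membrane and a small set of abundant proteins. In peripheral nerves and ganglia the Schwann cell does this work with a partly different set, which includes PMP22 and PRX. MBP, MAG, CNP and UGT8 are used by both cell types, whereas MOG, MOBP and OPALIN are known as genes of central myelin.

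Compact myelin is represented by MBP, which holds the inner faces of the membrane together (chromosome 18, 2974337 to 3127859, plus strand), by MOBP, another small basic protein (chromosome 2, 94460847 to 94525894, plus strand), and by CLDN11, the claudin of the tight junctions in central myelin (chromosome 2, 74632267 to 74903920, plus strand). MOG lies on the outermost surface of the sheath (chromosome 4, 141157637 to 141174946, minus strand). MAG faces the axon as an adhesion protein (chromosome 19, 35748363 to 35769910, plus strand). CNP is a phosphodiesterase of non-compact myelin (chromosome 16, 53674324 to 53683951, plus strand). UGT8 makes galactosylceramide, the main glycolipid of myelin (chromosome 5, 114028774 to 114123378, plus strand). OPALIN is an oligodendrocyte membrane glycoprotein (chromosome 9, 95048475 to 95064500, minus strand). CMTM5 is a small membrane-spanning protein described in central myelin of mouse (chromosome 7, 87097432 to 87099635, plus strand). Coordinates are those of the deposited table on Macaca_fascicularis_5.0. No annotated exon of another gene overlapped an exon of any member.

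Libraries held 35453786 to 53480762 counts. Levels below are CPM, a gene's counts scaled to 1 common library total. The mitochondrial share of counts ran from 8.77% to 37.3% in cord, and it was above 30% in thoracic control 4, thoracic treated 1 and thoracic treated 4. Of the ganglia, cervical treated 4 stood apart, with a mitochondrial share of 23.01% and a correlation with its closest library of only 0.912. Apart from the pair described next, cervical cord control 1 and lumbar cord control 2 carried the most Schwann cell RNA among cord libraries, with 16807 and 17918 CPM summed over 19 listed Schwann cell and peripheral myelin genes. Cervical cord control 1 also had the lowest sum over 13 pan-neuronal genes among the 22 other cord libraries, 527 CPM.

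A pair of lumbar cord libraries, control 1 and treated 1, went against their tissue label. MOG was counted 12 times in control 1 (0.258 CPM) and 4 times in treated 1 (0.0870 CPM). Exact 95% Poisson intervals were 6.20 to 20.96 and 1.09 to 10.2 counts, and they cover counting error only. Mates of a read pair were counted singly and are not independent, so these intervals are too narrow even for that. In the other 22 cord libraries MOG ran from 330.0 to 1180 CPM, and in the 16 ganglion libraries from 0.292 to 2.14 CPM. Both lumbar libraries were thus below every ganglion library for a gene abundant in cord. OPALIN was 0.451 and 0.217 CPM in the pair, against 74.5 to 271 CPM in the other cord libraries and 0.0866 to 1.07 CPM in ganglia. MOBP was 4.36 and 6.44 CPM, against 362 to 1792 CPM in the other cord libraries and 5.05 to 12.8 CPM in ganglia.

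The other members were nearer to the cord levels in the pair. MBP was 12640 and 13571 CPM, inside the cord range of 11261 to 60952 CPM and above the ganglion maximum of 3076 CPM. CNP was 740 and 823 CPM and UGT8 597 and 706 CPM, both inside the cord ranges of 659 to 1697 and 191 to 1240 CPM. CMTM5 was 37.7 and 69.4 CPM, inside the cord range of 32.2 to 290 CPM. The value of control 1 was also inside the ganglion range of 9.41 to 60.9 CPM, where 1 ganglion library was higher. MAG, at 133 and 197 CPM, lay between the highest ganglion library (31.3 CPM) and the lowest other cord library (347 CPM). CLDN11, at 184 and 158 CPM, was below the other cord libraries (206 CPM and above), and 1 ganglion library was higher.

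**Figure D1:**
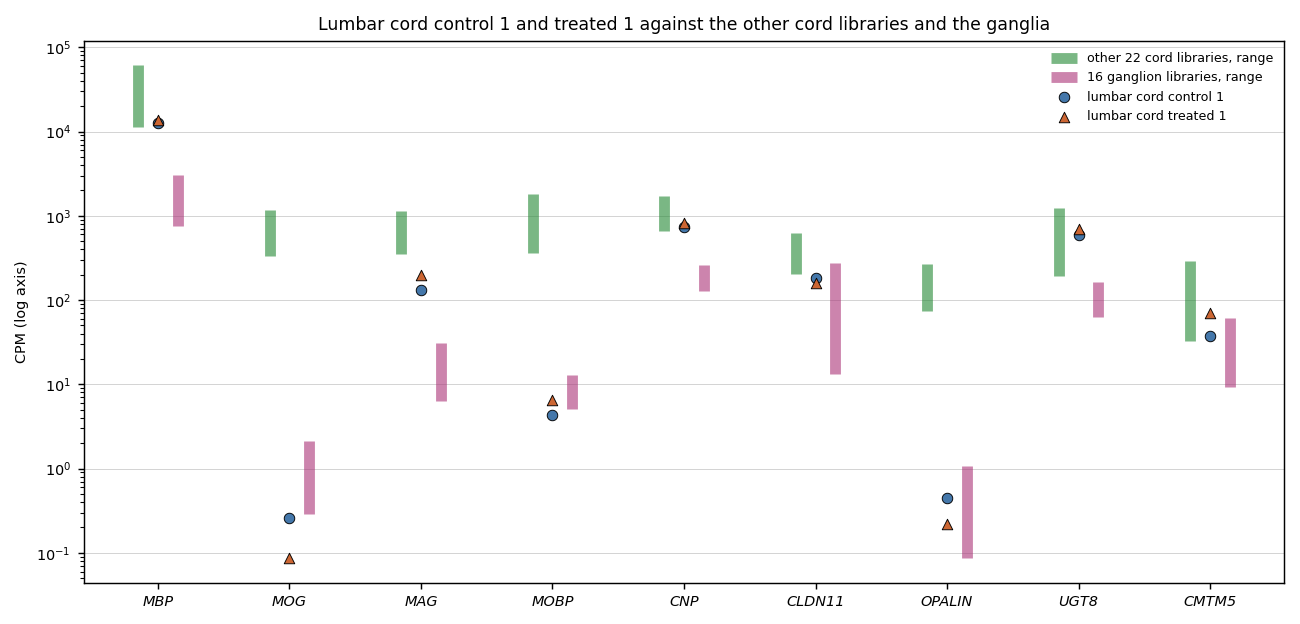
Levels of the 9 genes in lumbar cord control 1 (circle) and treated 1 (triangle) in CPM on a log axis, with bars for the range over the other 22 cord libraries and over 16 ganglion libraries. MOG, OPALIN and MOBP sit in or below the ganglion range in the pair, whereas MBP, CNP and UGT8 sit inside the cord range.

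Markers of several other cell types, though not of all, were extreme in the same pair. The Schwann cell list summed to 45618 CPM in control 1 and 35605 CPM in treated 1, above every ganglion library (4466 to 10430 CPM). The astrocyte list summed to 191 and 150 CPM, where the other cord libraries reached 11392 CPM or more, with GFAP, the astrocyte filament protein, at 45.7 and 65.6 CPM. The pan-neuronal list summed to 348 and 413 CPM, although SYT1, a synaptic vesicle gene of that list, stood at 165 and 268 CPM against 30.8 to 261 CPM in the other cord libraries. Among the cord interneuron and motor neuron genes 7 of 9 in control 1 and 4 of 9 in treated 1 were at 0. Sensory neuron genes summed to 33.1 and 50.5 CPM, inside the other cord range of 14.1 to 55.7 CPM and far under the ganglion minimum of 1122 CPM. Endothelial and mural genes summed to 1166 and 957 CPM, above the other cord maximum of 578 CPM. Microglia and macrophage genes, at 589 and 499 CPM, were inside the other cord range of 364 to 786 CPM. The skeletal muscle and fat cell lists were inside their cord ranges too. Connective tissue genes summed to 16783 and 11671 CPM, against 872 to 6840 CPM in the other cord libraries.

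Oligodendrocyte lineage genes split in the pair as the 9 members did. The 41 further mature oligodendrocyte genes summed to 5947 and 7989 CPM, below the other cord minimum of 16704 CPM, although MAL, at 482 and 429 CPM, was above the cord maximum of 242 CPM. Oligodendrocyte transcription factors summed to 513 and 646 CPM, inside the cord range of 416 to 1165 CPM. Precursor genes summed to 955 and 940 CPM, inside the range of 595 to 2149 CPM. OLIG2, a transcription factor of the oligodendrocyte lineage, was at 0 in control 1 and 0.0217 CPM in treated 1, against 6.56 to 21.2 CPM in the other cord libraries. OLIG1 was at 0 and 0.0435 CPM, against 4.06 to 15.4 CPM. SOX10, which Schwann cells share, was 259 and 367 CPM, above the other cord maximum of 256 CPM. Both libraries correlated best with each other over 13483 genes (r = 0.983), and neither came from an animal whose cervical or thoracic cord showed such a loss of MOG. In the remaining 22 cord libraries MOG, OPALIN and the astrocyte list were at cord levels, but cervical cord control 1 had only 5.42 CPM over the 9 cord interneuron and motor neuron genes, where the median of the 22 was 396 CPM. Results that rest on lumbar cord are given with and without this pair.

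Together the 9 genes made up 1.42% to 6.88% of all counts in cord, 0.102% to 0.380% in ganglia and 0.00271% to 0.00456% in liver. MBP alone reached 6.10% of the counts of thoracic control 3. In bulk tissue, fewer cells of a type and less RNA per cell cannot be told apart.

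**Figure D2:**
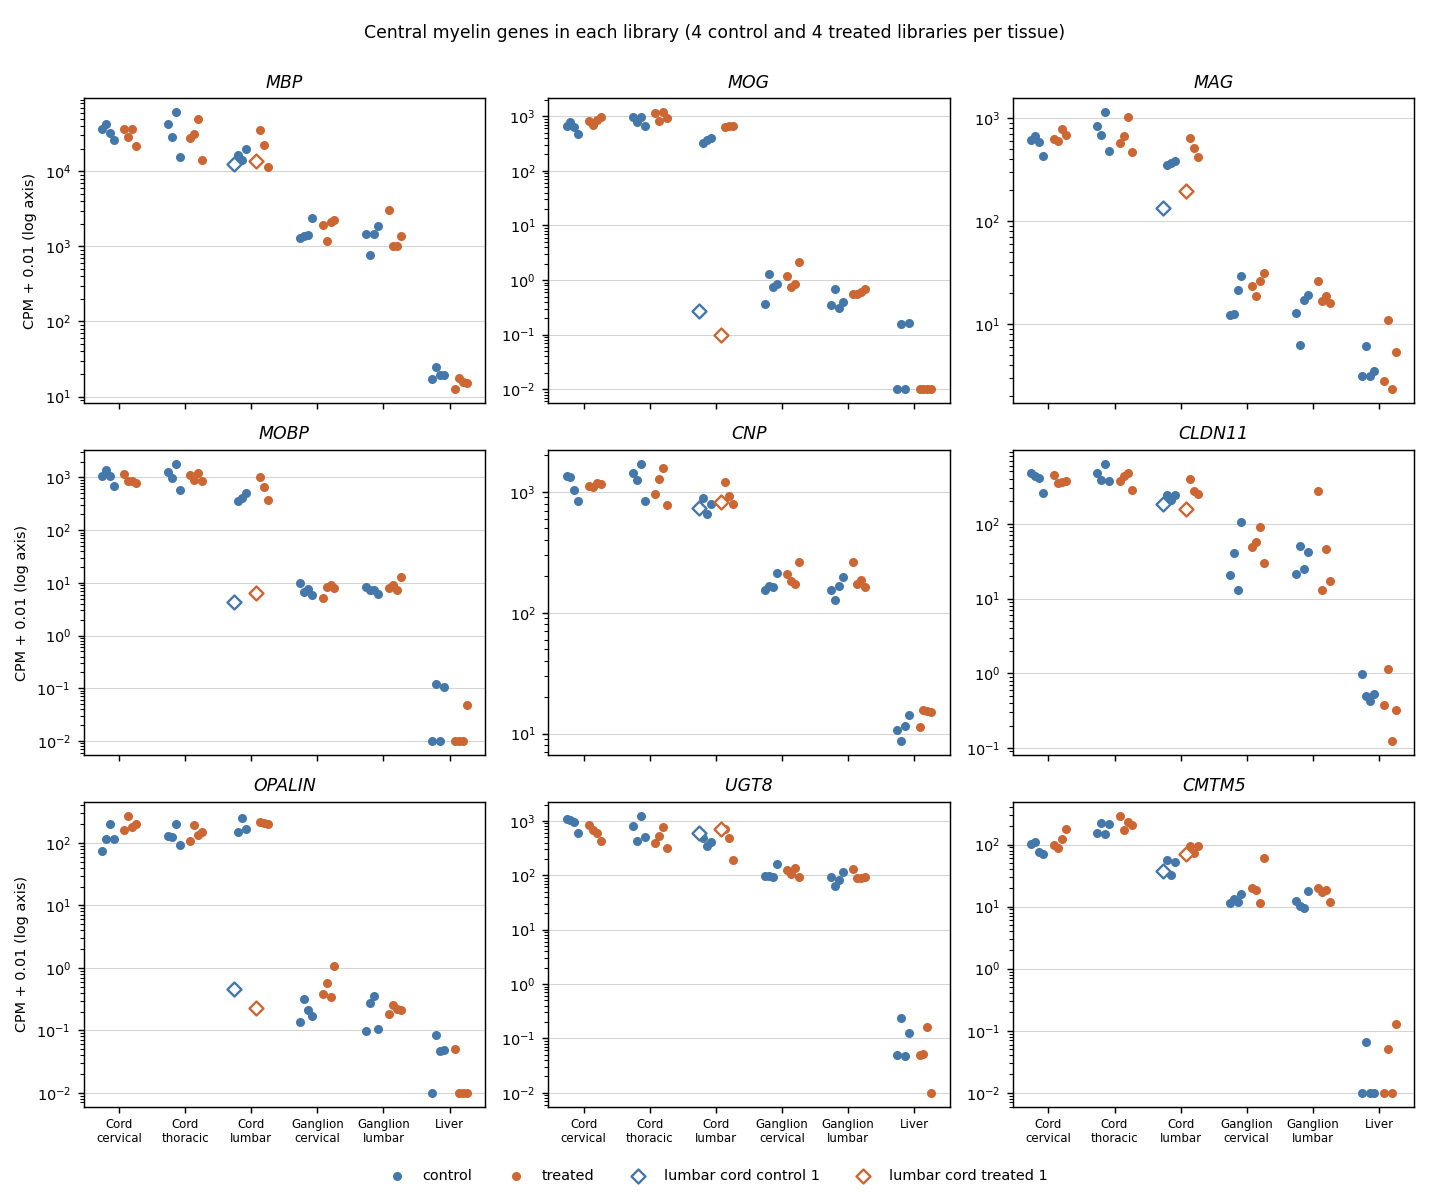
Level of each of the 9 genes in all 48 libraries, in CPM with a small constant added, on a log axis, by tissue and arm; open diamonds are lumbar cord control 1 and treated 1. Every gene is higher in the other 22 cord libraries than in liver, and MOG, OPALIN and MOBP fall furthest from cord to ganglion.

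Per length, MBP was the most abundant member in all 22 other cord libraries, with a median of 10233 RPKM, which is CPM divided by the exonic length in kilobases. MOBP followed with a median of 852 RPKM and stood below MBP and above CNP, with 368 RPKM, in 22 of 22 libraries. MOG, with 284 RPKM, was below CNP in 20 of 22 libraries. CMTM5 (183 RPKM), MAG (172 RPKM), CLDN11 (163 RPKM) and UGT8 (126 RPKM) had no stable order. CMTM5 exceeded MAG in only 10 of 22 libraries, MAG exceeded CLDN11 in 15 and CLDN11 exceeded UGT8 in 16. OPALIN (45.6 RPKM) had the lowest median and was below UGT8 in 21 of 22 libraries. In the 16 ganglion libraries MBP was again first, with a median of 512 RPKM, and CNP followed with 57.1 RPKM, above CMTM5 in 15 of 16. CMTM5 (25.6 RPKM) was above UGT8 (21.2 RPKM) in 11 of 16 ganglion libraries, and UGT8 above CLDN11 (17.9 RPKM) in 10 of 16, so these neighbours did not separate. MOG (0.255 RPKM) and OPALIN (0.0629 RPKM) closed the ganglion order in all 16 libraries.

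The spread between other cord libraries differed by gene. CNP varied least, with a highest library 2.58-fold above the lowest and an SD of 0.36 on the log2 scale (n = 22). CMTM5 varied most, 9.01-fold with an SD of 0.81. UGT8 (6.49-fold) and MBP (5.41-fold) were also wide. In ganglia CLDN11 varied most, 20.9-fold from 13.1 to 275 CPM, because lumbar treated 1 stood at 275 CPM and the next library, cervical control 4, at 104 CPM.

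In liver, 5 of the 9 genes were near absence. MOG ran from 0 to 0.154 CPM, MOBP from 0 to 0.113 CPM, CMTM5 from 0 to 0.118 CPM, OPALIN from 0 to 0.0751 CPM and UGT8 from 0 to 0.225 CPM. MBP kept 12.5 to 25.1 CPM there, CNP 8.68 to 15.7 CPM, MAG 2.30 to 10.8 CPM and CLDN11 0.114 to 1.13 CPM.

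The first comparison set ganglion against cord within the 4 control animals. At cervical level all 9 genes were lower in the ganglion, with no overlap between the 4 cord and 4 ganglion libraries for any of them. All 9 passed at an adjusted p under 0.05 (edgeR's quasi-likelihood test with animal as block and Benjamini-Hochberg adjustment over all genes), against 34.9% of 14236 genes called in either direction and 18.9% called lower. Non-overlap with the ganglion lower was found for 23.1% of all genes. Without control replicate 1 the count was again 9 of 9, beside 29.4% of 14315 genes.

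MOG, OPALIN and MOBP fell most. MOG was 659, 788, 645 and 481 CPM in cervical cord controls 1 to 4, and 0.358, 1.27, 0.731 and 0.820 CPM in the cervical ganglia of the same animals. Its log2 fold change was -9.74 ± 0.39 (SE, n = 4 animals, adjusted p = 0.00137, edgeR). OPALIN was 74.5, 116, 203 and 116 CPM in cord and 0.126, 0.303, 0.203 and 0.159 CPM in ganglion. Every animal thus had OPALIN lower in the ganglion by far more than the spread between animals, with a log2 fold change of -9.27 ± 0.34 (adjusted p = 0.00137, edgeR). MOBP was 1061, 1395, 1083 and 697 CPM in cord and 9.91, 6.69, 7.72 and 5.94 CPM in ganglion, a log2 fold change of -7.11 ± 0.27 (adjusted p = 0.00137, edgeR).

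The genes shared with Schwann cells fell less. MAG was 610, 666, 579 and 425 CPM in cervical cord and 12.1, 12.4, 21.5 and 28.9 CPM in ganglion, with a log2 fold change of -5.01 ± 0.37 (adjusted p = 0.00287, edgeR). MBP was 36559, 42941, 32794 and 26237 CPM in cord and 1292, 1374, 1422 and 2401 CPM in ganglion, with a log2 fold change of -4.44 ± 0.40 (adjusted p = 0.00366, edgeR). In both genes control 4 had the lowest cord and the highest ganglion value. CNP changed least of the 9, from 840 to 1349 CPM in cord to 155 to 213 CPM in ganglion, a log2 fold change of -2.69 ± 0.21 (adjusted p = 0.00312, edgeR). UGT8 gave -3.05 ± 0.29 (adjusted p = 0.00440, edgeR), from 603 to 1085 CPM in cord to 94.5 to 162 CPM in ganglion.

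CLDN11 and CMTM5 were also in the lower range of change. CLDN11 ran from 258 to 484 CPM in cord and from 13.2 to 104 CPM in ganglion, with a log2 fold change of -3.61 and the widest error of the 9 (SE 0.67, adjusted p = 0.0182, edgeR). CMTM5 ran from 69.4 to 109 CPM in cord and from 11.5 to 15.9 CPM in ganglion, a log2 fold change of -2.73 ± 0.16 (adjusted p = 0.00197, edgeR). In the treated libraries, 9 of 9 members were likewise called lower in the cervical ganglion, beside 31.9% of 14326 genes called and 15.9% called lower. That fit had sex in place of the animal block. Some treated animals gave both tissues, and their libraries were treated as independent.

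**Figure D3:**
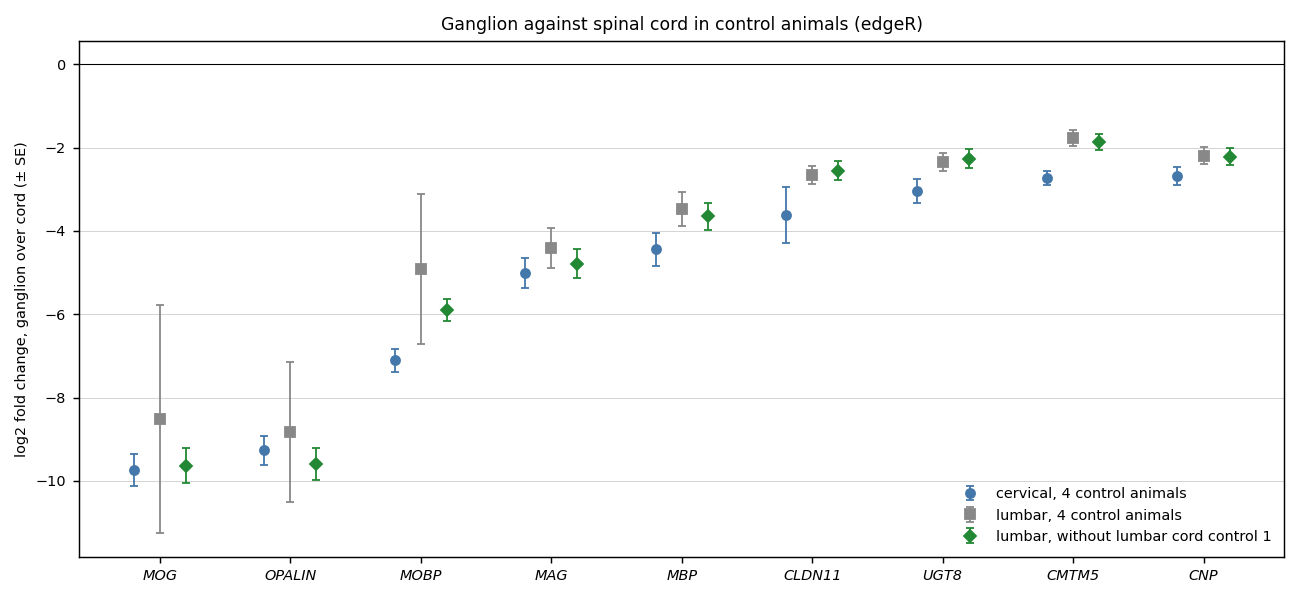
Log2 fold change of ganglion over cord ± SE for each gene, in control animals, at cervical level, at lumbar level and at lumbar level without lumbar cord control 1. At cervical level the values run from -9.74 for MOG to -2.69 for CNP; the lumbar errors of MOG, OPALIN and MOBP are wide with lumbar cord control 1 and narrow without it.

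At lumbar level 1 library decided the call of MOG and MOBP. With all 4 control animals, 7 of 9 members were called lower, against 19% of 14269 genes called and 9.66% called lower. MOG (-8.52 ± 2.74, adjusted p = 0.0950, edgeR) and MOBP (-4.92 ± 1.80, adjusted p = 0.122, edgeR) did not pass. Leaving out control replicate 2, 3 or 4 in place of control 1 gave 0 of 9 members called and 0% of all genes, with 7 members and 3522 to 3883 genes at an unadjusted p under 0.05 (edgeR). Lumbar cord control 1 had MOG and MOBP at 0.258 and 4.36 CPM, below its own lumbar ganglion at 0.346 and 8.46 CPM, while the other 3 animals had 330.0 to 403.2 CPM and 362 to 513 CPM in cord and 0.292 to 0.662 CPM and 6.19 to 7.26 CPM in ganglion. Without that library, 9 of 9 were called, against 34.7% of 14529 genes called and 18.2% called lower, with MOG at -9.63 ± 0.41 (adjusted p = 0.00188, edgeR), OPALIN at -9.60 ± 0.38 (adjusted p = 0.00168, edgeR) and MOBP at -5.90 ± 0.26 (adjusted p = 0.00188, edgeR).

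Without that library MAG had a log2 fold change of -4.79 ± 0.35 and MBP of -3.65 ± 0.32 in the lumbar ganglion. The remaining log2 fold changes without it were -2.56 ± 0.22 for CLDN11, -2.27 ± 0.23 for UGT8, -2.22 ± 0.20 for CNP and -1.87 ± 0.19 for CMTM5. The ordering by size was close to that at cervical level, with MOG and OPALIN first and CNP and CMTM5 last. In the treated animals without lumbar cord treated 1, 8 of 9 were called lower, beside 23.3% of 14566 genes called and 11.8% called lower. CLDN11 did not pass (-2.61 ± 0.98, adjusted p = 0.0940, edgeR). That fit too had sex in place of the animal block, although some of these animals gave both tissues. CLDN11 in the treated lumbar ganglia ran from 13.1 to 275 CPM.

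Other oligodendrocyte genes were lower in ganglia as well. Of 41 further mature oligodendrocyte genes, 34 were called lower and 2 higher in the cervical ganglion, with a median log2 fold change of -2.03 beside 0.04 over all genes tested. Over all 14236 genes, 18.9% were called lower and 2283 genes higher. The smallest p values belonged to ST18 (-7.45 ± 0.17), HAPLN2 (-8.63 ± 0.24), ANLN (-5.53 ± 0.21) and ADAMTS4 (-6.30 ± 0.25). Of 10 oligodendrocyte transcription factors 7 were called lower and 0 higher, among them OLIG2 (-10.47 ± 0.64) and MYRF (-6.21 ± 0.43), which switches on myelin genes. Of 16 precursor genes 11 were called lower and 1 higher.

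Calls in the lipid, junction and Schwann cell lists went in both directions. They are to be read against 18.9% of 14236 genes called lower and 2283 genes called higher in the same comparison. Of 21 tested genes of myelin sphingolipid metabolism, a list that holds UGT8 itself, 6 were called lower and 3 higher, including FA2H, the fatty acid hydroxylase of myelin lipids (-3.19 ± 0.32), on the lower side. Of 17 axon-glia junction genes 2 were called higher and 2 lower. Of 19 Schwann cell genes 4 were called higher, among them NGFR, the low-affinity neurotrophin receptor (7.19 ± 0.96), and 2 lower, among them S100B (-2.39 ± 0.20). The median log2 fold change of the Schwann cell list was 3.24 beside 0.04 over all genes, so most of it lay on the higher side, called or not. Cervical cord control 1 carried 16807 CPM of this list against 2396 to 4635 CPM in the other cervical cord controls.

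The cord regions were compared over 8 animals with animal as block. Thoracic cord was above cervical cord for 6 of 9 members, a share to read against 46.7% of 14072 genes called and 23% called higher. CMTM5 changed most, and it was higher in the thoracic cord of 8 of 8 animals. Cervical CMTM5 was 100.2, 109, 75.0 and 69.4 CPM in controls and 97.7, 86.7, 124 and 175 CPM in treated animals. Thoracic CMTM5 was 156, 225, 148 and 211 CPM in controls and 290, 170, 228 and 207 CPM in treated animals. Its log2 fold change was 1.27 ± 0.19 (adjusted p = 0.00437, edgeR).

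MOG was higher in thoracic cord in 6 of 8 animals (0.63 ± 0.12, adjusted p = 0.00465, edgeR). MAG (0.47 ± 0.14), CLDN11 (0.41 ± 0.14), MOBP (0.40 ± 0.13) and CNP (0.35 ± 0.12) passed with adjusted p values of 0.0208, 0.0311, 0.0282 and 0.0417 (edgeR). In CPM, MAG was higher in thoracic cord in 6 of 8 animals, MOBP and CNP in 5 and CLDN11 in 4. MBP (0.19 ± 0.18), OPALIN (0.10 ± 0.15) and UGT8 (-0.11 ± 0.18) did not pass. These calls depended on scaling: with total counts in place of TMM the median log2 fold change of all genes moved from -0.06 to -0.34, 2 of 9 members were called and MBP and OPALIN turned to -0.09 and -0.18. All-gene calls then split into 1571 higher and 5567 lower, against 3238 and 3340 with TMM. Without treated replicate 1 or treated replicate 3, 3 of 9 members were called, beside 33.8% and 45.1% of all genes. In the 4 control animals alone 0 of 9 members and 0% of 14074 genes were called (edgeR), with 3 members and 4265 genes at an unadjusted p under 0.05.

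RNA from other cell types and mitochondria differed between these regions. The pan-neuronal list summed to 527 to 12119 CPM in cervical and 1378 to 4671 CPM in thoracic cord, and the mitochondrial share ran from 8.77% to 25.7% and from 10.5% to 37.3%. Within thoracic cord, the highest sums over the 9 genes, 68751 and 55974 CPM, were in the libraries with the lowest mitochondrial shares, control 3 (10.5%) and treated 3 (13.3%). The lowest sums, 19206 and 18078 CPM, were in those with the highest shares, control 4 (37.3%) and treated 4 (36.4%). MBP set most of this difference, and MOG in control 4 and treated 4 was 671 and 941 CPM, the first the lowest of the 8 and the second inside their range. The part of these shares in the regional differences was not tested.

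Lumbar cord was below thoracic cord. With all libraries 5 of 9 members were called lower, against 35.9% of 14154 genes called and 18.8% called lower: CMTM5 (-2.09 ± 0.20), MAG (-1.38 ± 0.29), CLDN11 (-1.18 ± 0.19), MBP (-1.17 ± 0.31) and CNP (-0.83 ± 0.17). Without lumbar control 1 and treated 1, 7 of 9 were called lower, against 17.9% of all genes tested. CMTM5 (-1.98 ± 0.22), MOBP (-1.27 ± 0.28), MOG (-1.19 ± 0.18), MAG (-1.03 ± 0.21), CLDN11 (-1.01 ± 0.19), UGT8 (-0.83 ± 0.27) and CNP (-0.80 ± 0.19) passed, and MBP narrowly missed (-0.97 ± 0.33, adjusted p = 0.0509, edgeR). MOG, MAG, CLDN11 and CMTM5 were lower in lumbar than in thoracic cord in 6 of the 6 remaining animals, MOBP and CNP in 5, and MBP and UGT8 in 4. The pan-neuronal list summed to 3457 to 14624 CPM in the remaining lumbar libraries and to 1378 to 4671 CPM in thoracic cord. The Schwann cell list summed to 17918 CPM in lumbar control 2 and 1933 to 4649 CPM in the others, against 3103 to 7028 CPM in thoracic cord. The part of cell content in the lumbar differences was not tested.

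Without the pair, OPALIN was not lower in lumbar cord. In the 6 remaining animals it was 149 to 246 CPM in lumbar and 92.8 to 202 CPM over all 8 thoracic libraries, and it was above the animal's own thoracic value in 6 of 6. These are CPM of total counts, a scale that also moved the median of all genes up in this comparison, as given below. The fitted difference was nevertheless small and did not pass (0.11 ± 0.11, adjusted p = 0.463, edgeR), and with the pair included it was -0.88 ± 1.18. Under total counts the median of all genes in the lumbar against thoracic comparison moved from 0.03 to 0.37, 3 of 9 members were called, and all-gene calls split into 4852 higher and 1186 lower, against 2426 and 2659 with TMM.

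Between lumbar and cervical cord, the fitted values of 9 of 9 members were below 0. In edgeR 0 of 9 passed, against 0.0351% of 14238 genes called. At an unadjusted p under 0.05 were 6 members and 2947 of all genes (edgeR). DESeq2 called 6 of 9 members, among 1624 genes. UGT8 was -0.75 ± 0.16, CMTM5 -0.80 ± 0.15 and MBP -0.97 ± 0.22, with adjusted p values of 0.0878, 0.0810 and 0.0940 (edgeR). Without the pair 0 of 9 passed, beside 0.0489% of 14326 genes, and 8 members and 2641 of all genes were at an unadjusted p under 0.05 (edgeR). The values without it ran from -0.89 ± 0.26 (MOBP) to -0.42 ± 0.12 (CNP) in 8 members. OPALIN was -0.87 ± 1.16 with the pair and 0.10 ± 0.12 without it. MOG moved from -1.63 ± 1.41 to -0.64 ± 0.15.

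**Figure D4:**
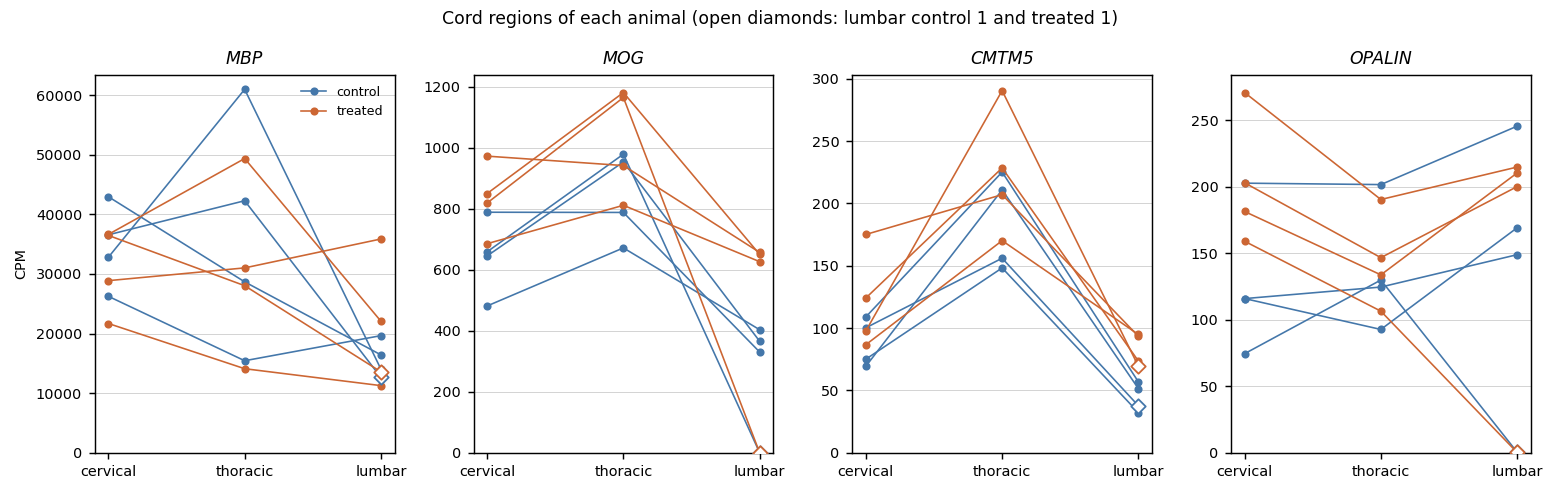
Levels of MBP, MOG, CMTM5 and OPALIN in CPM in the 3 cord regions, with each line joining the libraries of 1 animal; open diamonds are lumbar control 1 and treated 1. CMTM5 is highest in thoracic cord in 8 of 8 animals, and MOG and OPALIN drop to near 0 only at the open diamonds.

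Between lumbar and cervical ganglia 0 of 9 members passed in limma, beside 0.205% of 14168 genes called. At an unadjusted p under 0.05 were 4 members and 1947 of all genes (limma). The smallest p belonged to UGT8 (-0.32 ± 0.08, adjusted p = 0.116, limma), followed by MOG (-0.71 ± 0.21) and MAG (-0.44 ± 0.13), both with an adjusted p of 0.174.

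Treated against control was then compared in each tissue. In cervical cord 0 of 9 members passed, beside 0% of 14235 genes called in edgeR, with 2 members and 1356 of all genes at an unadjusted p under 0.05. UGT8 was 1085, 1059, 958 and 603 CPM in control and 851, 685, 604 and 428 CPM in treated animals. The groups overlapped at control 4 only, which lay among the treated values (log2 fold change -0.57 ± 0.17, unadjusted p = 0.00996, adjusted p = 0.504, edgeR). OPALIN was 74.5, 116, 203 and 116 CPM in control and 159, 271, 181 and 203 CPM in treated animals, with 0.70 ± 0.28 (unadjusted p = 0.0388, adjusted p = 0.504, edgeR).

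The other 7 genes had cervical log2 fold changes between -0.24 (MOBP, SE 0.20) and 0.41 (CMTM5, SE 0.32). MOG was at 0.35 ± 0.23 and CNP at -0.00 ± 0.20. Beside these values, the Schwann cell list was lower on the log2 scale in 19 of 19 genes, with a median of -1.32 and 0 called. Its sums ran from 2396 to 16807 CPM in control and from 2255 to 4144 CPM in treated animals, with the highest value in control 1. Without cervical cord control 1, 0 of 9 members and 0% of 14299 genes were called, with UGT8 at -0.57 ± 0.19 and OPALIN at 0.51 ± 0.26 (edgeR).

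In thoracic cord 0 of 9 members passed, beside 0% of 14032 genes, with 0 members at an unadjusted p under 0.05 (edgeR). UGT8 was 808, 428, 1240 and 515 CPM in control and 392, 529, 784 and 315 CPM in treated animals, with heavy overlap (-0.64 ± 0.30, adjusted p = 0.981, edgeR). MOG was 978, 788, 953 and 671 CPM in control and 1164, 811, 1180 and 941 CPM in treated animals (0.22 ± 0.24). With the 3 libraries above a mitochondrial share of 30% left out, MOG turned to -0.10 and OPALIN to -0.08, and 0 of 9 were called.

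In lumbar cord 0 of 9 members passed with all 8 libraries, beside 0% of 14361 genes (edgeR). At an unadjusted p under 0.05 were 1 member and 250 of all genes (edgeR). CMTM5 was 37.7, 56.9, 32.2 and 51.5 CPM in control and 69.4, 94.8, 73.5 and 93.4 CPM in treated animals. Every treated value was above every control value, a pattern shown by 0.738% of all genes in that direction (0.85 ± 0.26, unadjusted p = 0.0129, adjusted p = 1.00, edgeR). Without control 1 and treated 1 the value was 0.89 ± 0.30 (adjusted p = 0.765, edgeR).

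MOG in lumbar cord had an SE of 1.92 with the pair and 0.20 without it. The remaining controls had 330.0, 365 and 403.2 CPM and the remaining treated animals 626, 650 and 657 CPM. The groups of 3 did not overlap in CPM of total counts, as for 4 of 9 members and 8.59% of 14361 genes with the treated group higher. The non-overlap share given above beside CMTM5 was on TMM-scaled values instead. The log2 fold change of MOG without the pair was 0.79 ± 0.20 (unadjusted p = 0.00785, adjusted p = 0.694, edgeR). With the pair it was 0.75 ± 1.92. MAG was 347, 367 and 382 CPM against 637, 516 and 417 CPM, again without overlap (0.46 ± 0.19, adjusted p = 0.846, edgeR), and CLDN11 (0.35 ± 0.19) and CMTM5 were the other 2. UGT8, at 491, 349 and 417 CPM against 701, 476 and 191 CPM, overlapped widely (-0.04 ± 0.32).

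Other cell type markers separated the same 6 lumbar libraries. The pan-neuronal list summed to 8100, 14624 and 11680 CPM in control and 3457, 6194 and 6673 CPM in treated animals. The astrocyte list summed to 11392, 11481 and 14224 CPM in control and 19775, 20987 and 14845 CPM in treated animals. Neither list overlapped between the groups. Further mature oligodendrocyte genes summed to 16704, 18646 and 21681 CPM in control and 30126, 24217 and 17205 CPM in treated animals, which overlapped. The part of cell content in the MOG, MAG, CLDN11 and CMTM5 values was not tested.

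**Figure D5:**
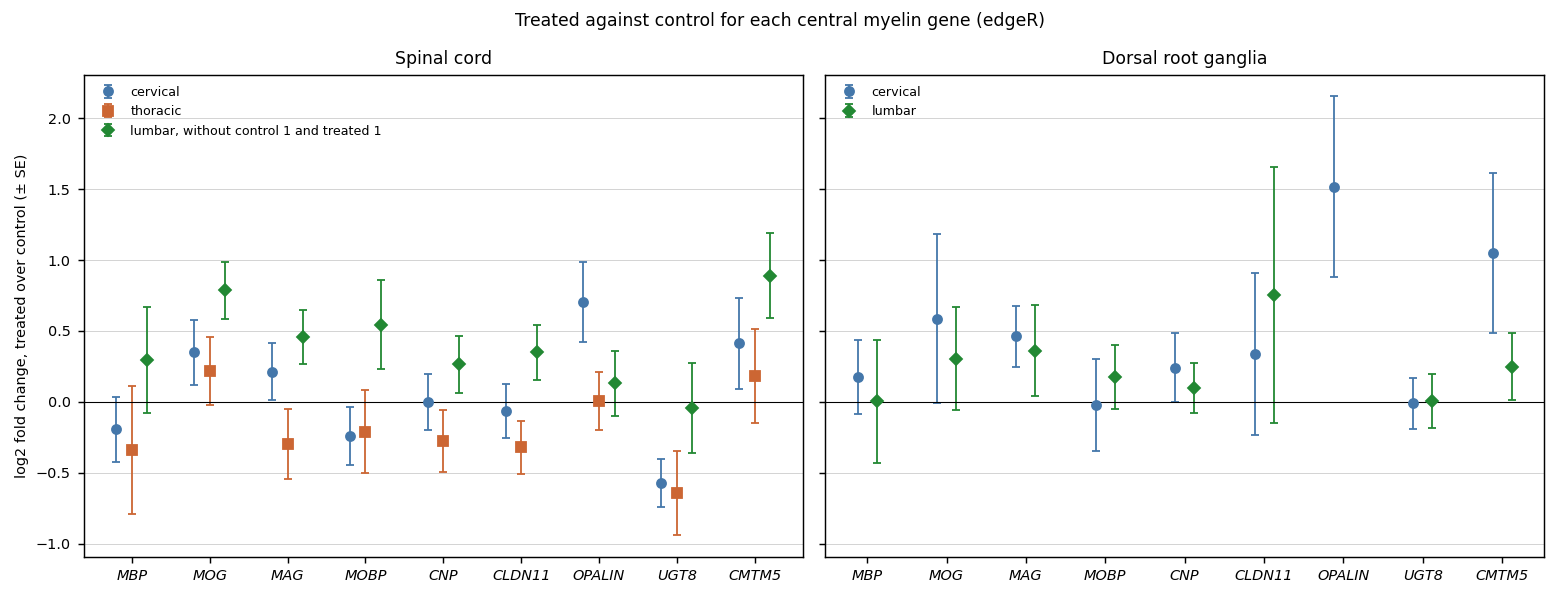
Log2 fold change of treated over control ± SE for each gene in the cord regions (lumbar without control 1 and treated 1) and in the ganglia; OPALIN was under the count filter in lumbar ganglia. UGT8 is below 0 in cervical and thoracic cord and near 0 in lumbar cord, and MOG and CMTM5 are above 0 in all 3 cord regions; 0 of these values passed the adjusted threshold.

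Summed over the 3 cord regions of each animal, 0 of 9 members passed, beside 0% of 15002 genes (edgeR), with 0 at an unadjusted p under 0.05. MOG (0.38 ± 0.18) and CMTM5 (0.44 ± 0.22) were at the upper end and UGT8 (-0.42 ± 0.22) at the lower end. MBP, the most abundant, was at -0.14 ± 0.29. Without the pair 0 of 9 passed, beside 0% of 14946 genes, with 0 members at an unadjusted p under 0.05, and MOG, CMTM5 and UGT8 were at 0.39 ± 0.21, 0.46 ± 0.23 and -0.50 ± 0.22 (edgeR). Cervical and thoracic cord alone gave UGT8 a value of -0.61 ± 0.21 (adjusted p = 0.633, edgeR). No member's treatment change differed between cord regions past the threshold (0 of 9, beside 0% of 14748 genes, smallest adjusted p 0.9999 in limma), with 0 at an unadjusted p under 0.05; without the pair MAG and OPALIN had unadjusted p values of 0.0406 and 0.0340.

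In the ganglia 0 members passed either. In cervical ganglia 0 of 9 were called in edgeR, beside 0% of 14173 genes. Of the members OPALIN alone was at an unadjusted p under 0.05, beside 1042 of all genes (edgeR). OPALIN was 0.126, 0.303, 0.203 and 0.159 CPM in control and 0.370, 0.558, 0.331 and 1.07 CPM in treated animals. All treated CPM values were higher, at 4 to 38 counts a library over the 16 ganglia, but after TMM scaling the groups overlapped (1.52 ± 0.64, adjusted p = 0.662, edgeR). The library cervical treated 4, which stood apart from all ganglia, held the highest OPALIN, MOG (2.14 CPM), CMTM5 (60.9 CPM), CNP (263 CPM) and MAG (31.3 CPM) of the 16.

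In lumbar ganglia 0 of 8 tested members passed, beside 4.29% of 14267 genes called, and 0 were at an unadjusted p under 0.05 (edgeR). MBP was 1483, 758, 1458 and 1856 CPM in control and 3076, 1005, 1005 and 1378 CPM in treated animals (0.00 ± 0.43). CLDN11 was 21.04, 50.4, 25.2 and 42.1 CPM in control and 275, 13.1, 45.3 and 16.9 CPM in treated animals (0.75 ± 0.90). Treated 1 was the highest lumbar ganglion for MBP, CLDN11, MAG, CNP, UGT8 and CMTM5, and the other treated values lay among or near the controls. All-gene calls there split into 91 higher and 521 lower with TMM, and into 1475 higher and 368 lower with total counts, under which 0 of 8 members were called.

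Both ganglion regions fitted together gave 0 of 9 members called, beside 0.981% of 14168 genes (limma with animal as random block), with 0 at an unadjusted p under 0.05. All 9 values were above 0, with a median of 0.44 beside 0.04 over all genes, and ran from 0.01 (MOBP) to 0.85 (OPALIN, SE 0.56). With each animal left out in turn the median ran from 0.20 to 0.56. It was 0.20 without the animal of cervical treated 4 and 0.21 without that of lumbar treated 1, each with 7 of 9 values above 0. Without the animal of the control 1 libraries it was also 0.21, with 9 of 9 values above 0. The pan-neuronal list in lumbar ganglia summed to 28710 to 38960 CPM in control and 16230 to 21085 CPM in treated animals, with no overlap. Its part in the members' values was not tested. Of the genes related to the members, PIP4K2A (-0.71 ± 0.12, adjusted p = 0.0222, edgeR) and QDPR (-0.42 ± 0.09, adjusted p = 0.0487, edgeR) fell in lumbar ganglia, as 2 of 41 further oligodendrocyte genes, beside 3.65% of all genes called lower there.

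Among 21 sphingolipid genes 2 fell in lumbar ganglia and 0 rose, beside 3.65% of 14267 genes called lower. They were PSAP, the precursor of the saposins (-0.94 ± 0.14, adjusted p = 0.0172, edgeR), and ASAH1, the lysosomal acid ceramidase (-0.72 ± 0.12, adjusted p = 0.0200, edgeR). All-gene calls in lumbar ganglia depended on single libraries: 612 in the main fit, 32 without control replicate 1 and 18 without control replicate 3 (edgeR). With the replicate block in place of sex 206 genes were called. PSAP and ASAH1 act in lysosomal breakdown of sphingolipids, and UGT8, an enzyme of their synthesis, was at 0.00 ± 0.19. In treated cord, where it did not pass, ASAH1 was at -0.88 ± 0.21 in cervical, -0.93 ± 0.23 in thoracic and -0.57 ± 0.17 in lumbar cord. In the 10 oligodendrocyte transcription factors and 16 precursor genes 0 were called in any cord region by edgeR. At an unadjusted p under 0.05 in cervical cord were 2 and 5 of them, beside 1356 of 14235 genes (edgeR). NEU4, a sialidase of the oligodendrocyte lineage (0.96 ± 0.15, adjusted p = 0.343), and OLIG2 (0.69 ± 0.17, adjusted p = 0.504) had the smallest p there. The treatment change did not differ between cord and ganglion past the threshold for any of the 9 members (limma, smallest adjusted p 0.703, 0 at an unadjusted p under 0.05), beside 0.299% of 15072 genes.

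In liver 4 members (MBP, MAG, CNP and CLDN11) passed the count filter and 0 of 4 were called, beside 0% of 12609 genes (edgeR). MBP was 16.98, 25.1, 19.1 and 19.4 CPM in control and 12.5, 17.9, 15.7 and 14.98 CPM in treated animals. Treated 2 exceeded control 1 in CPM, and after TMM scaling the groups did not overlap, as for 3.09% of all genes with the treated group lower (-0.58 ± 0.17, unadjusted p = 0.010, adjusted p = 0.412, edgeR). CNP was 8.68 to 14.2 CPM in control and 11.4 to 15.7 CPM in treated animals (0.19 ± 0.14). DESeq2 and limma voom also called 0 members in liver, in each cord region and in each ganglion region.

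Across the 22 other cord libraries most members moved together, as a description over libraries that share animals and depth. MAG followed the mean of the other members most closely (r = 0.96), then CLDN11 (0.93), MOBP and CNP (both 0.91) and MBP (0.87). MAG and CNP were the closest pair (r = 0.93). MOG also followed (0.72) and was closest to CMTM5 (0.87), and UGT8, at 0.62 with the mean of the others, was closest to MBP (0.86). CMTM5 followed less, with r = 0.48, and with 0.016 over the 16 cervical and thoracic libraries, where UGT8 had 0.45 and MOG 0.50. OPALIN did not follow, with r = -0.23 against the mean of the others and -0.41 with CMTM5.

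The genes outside the list whose log2 CPM was most like the members' mean over those 22 libraries were CARNS1 (r = 0.97), which makes carnosine in oligodendrocytes, SYPL1 (0.95), SLAIN1 (0.95), C10orf90 (0.94), CDK18 (0.94), IPO13 (0.94), APBB1 (0.93) and PCSK6 (0.92). They were ranked among 13473 genes averaging 1 CPM or more, and CARNS1, also in the list of further oligodendrocyte genes, ran from 47.4 to 185 CPM. In the 16 cervical and thoracic libraries alone CARNS1 again ranked first (r = 0.95) and PCSK6 ranked 39.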

How the data were processed

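Messenger RNA of 48 libraries was read as 50 bp pairs from stranded libraries (TruSeq), per the labels. What the authors deposited is a table of raw counts by gene name. Per the file headers it was produced by featureCounts 1.4.6-p1 on Ensembl release 94 of Macaca_fascicularis_5.0. STAR 2.5.3a is the aligner in the submitters' processing notes. The counting command in the headers has no option for pairs or strand. Mates were thus counted singly and without regard to strand. Totals of 35453786 to 53480762 counts give all libraries a like counting precision.

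Each tissue was fitted on its own by the quasi-likelihood test of edgeR 4.0.16 in R 4.3.3, after filterByExpr and TMM scaling, with sex as covariate. Ganglion against cord in control animals and cord regions had the animal as block. Ganglion against cord in treated libraries had sex as covariate and no animal block. Both ganglion regions, and interactions, were fitted in limma 3.58.1 voom with animal as random block (statmod 1.5.0). The threshold was 0.05 for p values adjusted by Benjamini-Hochberg over all genes tested, and p values are two-sided. Replicates are separate animals. RPKM values use the exonic length of the table and total counts. Fold changes are log2 values ± SE, positive for the group named first. In edgeR fits the SE was derived from the test, as the absolute log2 fold change over the square root of its F statistic. It is thus an approximate SE, least exact for genes near 0 counts.

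Members, companion lists and alternatives (DESeq2 1.42.0, limma voom, other scaling, no filter, no sex term, replicate blocks, left-out libraries) were chosen with earlier results of these data known. All members are named. Companion genes were named by smallest p, up to 4 past the threshold or else up to 3, and likeness was ranked by Pearson r. Markers named in the pair of lumbar libraries were partly chosen after their levels were seen. The fits were tested on simulated data. Same-numbered control and treated lumbar cord libraries deviated together from their group means (r of 0.92, 0.19, 0.79 and 0.51). This met the rule for pairing there, although the animals differ. The r of 0.92 is that of control 1 and treated 1 themselves. Both group means include this pair, which shifts the other deviations in both groups alike, so the check cannot show pairing in lumbar cord. In the other tissues the rule was not met in every pair. No sequence is printed.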

Additional observations from a re-analysis of the deposited data

Results flagged for a closer look

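Of 89 groups of 4 libraries with a mean of at least 1 CPM, 11 held a library far from the other 3 on the log2(CPM + 1) scale, where chance gives about 1 in 20. In lumbar cord control 1 MOG was 0.258 CPM (others 330.0 to 403.2), OPALIN 0.451 CPM (149 to 246), MOBP 4.36 CPM (362 to 513) and MAG 133 CPM (347 to 382). In lumbar cord treated 1 MOG was 0.0870 CPM (626 to 657) and OPALIN 0.217 CPM (200.2 to 215). These 6 values come from the pair of libraries whose summed Schwann cell list was above all other cord and ganglion libraries and whose summed astrocyte and pan-neuronal lists were below all other cord libraries.

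Cervical ganglion control 4 was high for MBP at 2401 CPM (1292 to 1422) and for UGT8 at 162 CPM (94.5 to 98.2). Lumbar ganglion treated 1 was high for UGT8 at 128 CPM (88.3 to 93.7). In liver, control 2 was high for MAG at 6.12 CPM (3.12 to 3.46) and treated 1 low for CNP at 11.4 CPM (15.2 to 15.7).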

How the results depend on the processing

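The treated against control comparisons called 0 members in edgeR, DESeq2 and limma voom, under other scaling, and without a filter or sex term. The count was also 0 with any replicate or animal left out. With the replicate block in place of sex, 0 members were called in each tissue, lumbar cord included. In cervical ganglion against cord the count stayed between 8 and 9 of 9 without each replicate. In lumbar ganglion against cord it ran from 0 to 9: it was 9 without control replicate 1, beside 5165 of 14442 genes, and 0 without control replicate 2, 3 or 4, where 0 genes of the whole table were called. Thoracic against cervical cord called 6, but 3 to 5 without each replicate (3 without treated replicate 1 or 3), 2 with total counts, 4 with no replicate block and 0 in control animals alone, as for all genes. Lumbar against thoracic cord called 5, but 3 with total counts, 0 in control animals alone, as for all genes, and 4 to 6 without each replicate. Lumbar against cervical cord called 0 in edgeR and 6 in DESeq2. Over all genes DESeq2 called 1738 in lumbar ganglia against 612 in edgeR, 5828 against 2713 in lumbar ganglion against cord and 1624 against 5 in lumbar against cervical cord. Total counts called 1843 in lumbar ganglia, and 0 against 139 in both ganglion regions together.

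Log2 fold changes that turned sign did not pass in either setting, and the cause was not tested. With total counts CNP became 0.027 in treated cervical and 0.011 in summed cord, and thoracic against cervical MBP and OPALIN became -0.092 and -0.18. With limma voom CNP became 0.0051 in cervical cord, and OPALIN and UGT8 -0.095 and -0.064 in lumbar cord. The replicate block gave -0.055 and -0.031 for OPALIN and UGT8 in treated lumbar cord. Without the filter UGT8 was -3.08e-05 there. Limma over 24 cord libraries gave MOBP 0.18 and CNP 0.0043 for summed cord, and cervical and thoracic cord alone gave MAG -0.064. In both ganglion regions UGT8 was -0.00095 in edgeR without the animal block, and MOBP -0.0046 without the sex term. Leaving out lumbar cord control 1 and treated 1, UGT8 was -0.042 for treated lumbar cord, and OPALIN 0.11 and 0.099 for lumbar against thoracic and cervical cord. Leaving out the 3 thoracic libraries above a mitochondrial share of 30%, treated thoracic MOG and OPALIN were -0.10 and -0.080.

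Leaving out each replicate moved treated against control values across 0 as follows. In cervical cord CNP ran from -0.125 to 0.094 and CLDN11 from -0.22 to 0.056. In thoracic cord MBP ran from -0.66 to 0.019, MOBP from -0.37 to 0.054, OPALIN from -0.094 to 0.16 and CMTM5 from -0.11 to 0.47. In lumbar cord MBP ran from -0.069 to 0.48, MOG from -0.76 to 2.33, MOBP from -1.19 to 1.63, CLDN11 from -0.019 to 0.42, OPALIN from -1.52 to 1.52 and UGT8 from -0.16 to 0.23. In summed cord MBP ran from -0.35 to 0.0099, MAG from -0.093 to 0.17, MOBP from -0.25 to 0.070, CNP from -0.14 to 0.054 and OPALIN from -0.017 to 0.49. In both ganglion regions MBP ran from -0.11 to 0.30, MOBP from -0.14 to 0.17 and UGT8 from -0.063 to 0.18. Thoracic against cervical OPALIN ran from -0.020 to 0.22 and UGT8 from -0.19 to 0.024.

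Depth limits OPALIN and MOG in ganglia, where libraries held 4 to 38 and 12 to 76 counts of them. Total counts, alternatives for the thoracic libraries and treated lumbar libraries without treated 1 were chosen after the data were seen.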
